A study of Mus musculus with 12 samples.

Results

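This account follows 35 genes of microglia and infiltrating macrophages, taken as a fixed list of symbols and found by symbol among the 49671 genes of the deposited count table. All 35 matched 1 gene each, and all 35 had enough reads to be tested. They fall into 12 genes of homeostatic microglia, 15 genes shared by microglia and other myeloid cells, 6 genes of monocytes and border macrophages, and 2 genes of lipid handling and phagocytosis. The series asked which glioma subtype mouse tumours with mutant or wild-type IDH1 belong to. Total RNA came from 12 formalin-fixed, paraffin-embedded brain samples, 3 in each of 4 groups. The tumour groups are named for the tumour genotype: IDH1_R132H is the mutant isocitrate dehydrogenase 1 of human diffuse glioma, IDH1WT is the normal enzyme, and PDGFA is platelet-derived growth factor A, a ligand of the receptor PDGFRA. All tumours arose in N::TVA mice with floxed alleles that include Cdkn2a lox/lox and Atrx lox/lox. TVA is the avian receptor through which RCAS viruses enter mouse cells, and in this line it is placed in Nestin-expressing neural progenitors. The normal brains came from mice of the same floxed genotype that lacked TVA. The labels give no age, sex, batch or pairing, and leave unsaid both whether PDGFA was given with the IDH1 constructs and whether each library is from a separate animal. The p-values below therefore measure the spread between these samples, some of which may be technical.

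Microglia are the resident macrophages of the brain, settled there in the embryo and kept alive by signals through the receptor CSF1R. In the undisturbed brain they carry a homeostatic set of surface receptors that sense nucleotides, chemokines and sialic acid, whereas monocytes from blood and the macrophages of the brain's borders carry other receptors and enzymes. In gliomas both kinds of cell are known to gather in and around the tumour, where they take up debris and present antigen. The measurements here are from whole tissue, so fewer cells of a type and less RNA per cell cannot be told apart.

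Library totals ran from 6507923 to 14277395 counts. In IDH1_R132H tumour 3 a single locus resembling ribosomal RNA, Gm42418, took 35.6% of the reads, against 0.218% to 0.855% in the other 11 libraries. Levels are given as CPM, read counts relative to library size, after scaling of the libraries by trimmed mean of M-values (TMM), and differences as log2 fold changes. Calls are from edgeR's quasi-likelihood test, with p adjusted by Benjamini and Hochberg over the 17812 genes tested and a threshold of 0.05. Of the microglia markers, P2ry12, Tmem119 and Cx3cr1 ran from 7.79 to 33.2 CPM in the 3 normal brains. Others were lower there, such as Fcrls at 2.31 to 4.55 CPM and Slc2a5 at 1.21 to 3.50 CPM. These genes are on the list itself, so the values show that they were detected and check no label. Neutrophil markers were near 0, with 10 genes summing to between 0.282 and 3.78 CPM per library and none passing the filter on low counts. Of 10 T cell and 6 B cell markers, 3 and 2 passed it. For tumours against normal brain 0 of them were called, where 5.22% of all genes tested were, which says little for so few genes.

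PDGFA tumour 1 stood apart from the other 11 libraries in these genes. It had the lowest level of 12 libraries in 29 of the 35 genes, while it was lowest in 15.1% of all genes tested. The 35 genes summed to 75.8 CPM there, against 210 to 361 CPM in the normal brains and 368 to 628 CPM in the other 8 tumours. Its median difference from the normal brain mean was -1.59 on the log2 scale, and 27 of 35 genes were at least 2-fold below, compared with 6.02% of all genes tested. The exceptions among the genes were Irf8, Aif1, Cd68 and Cd14, which were not below all 3 normal brains. Astrocyte markers were low in the same library, summing to 1005 CPM against 3501 to 6337 CPM elsewhere, and neuron markers were at their highest, with a mean of 0.73 on the log2 scale above the 12-library mean. Precursor markers, which mark the tumours of this series, summed to 497.5 CPM there against 298 to 305 CPM in normal brains and 1047 to 5549 CPM in the other tumours. The markers differed among themselves. Gpr17 (18.7 CPM against 22.3 to 25.8 CPM) and Neu4 (2.57 CPM against 5.89 to 8.12 CPM) were below all 3 normal brains in this library, and the other 8 of 10 were above them. Whether the label of this library and the tissue taken for it are right could not be settled from these values, and every value over PDGFA tumours or all tumours that includes it carries that doubt. The part of tissue composition in the low values was not tested. Many results that rest on this library, but not all, are given with and without it. Fcgr3 and Cd14 were not called by the edgeR fit described above on the 12 libraries, and were called when PDGFA 1 was left out. Their values are given only with that library included, as are the differences from the shared myeloid genes.

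**Figure D1:**
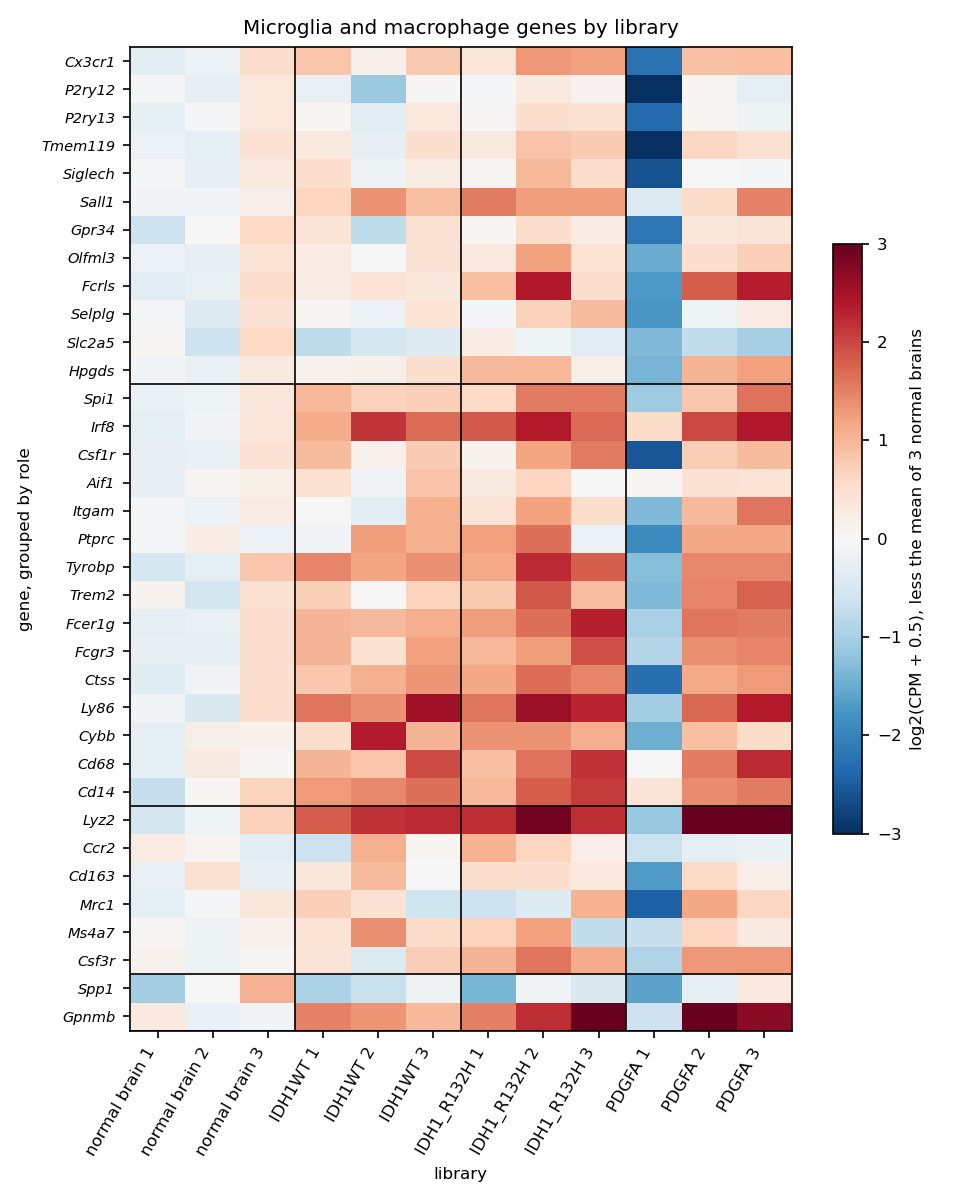
Heat map of the 35 genes (rows, grouped by role) in the 12 libraries (columns, by group). Colour gives log2(CPM + 0.5) less the mean of the 3 normal brains, from -3 (blue) to 3 (red). The column of PDGFA tumour 1 is below the normal mean in 31 of 35 rows, and the shared myeloid rows are red in most other tumours.

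**Figure D2:**
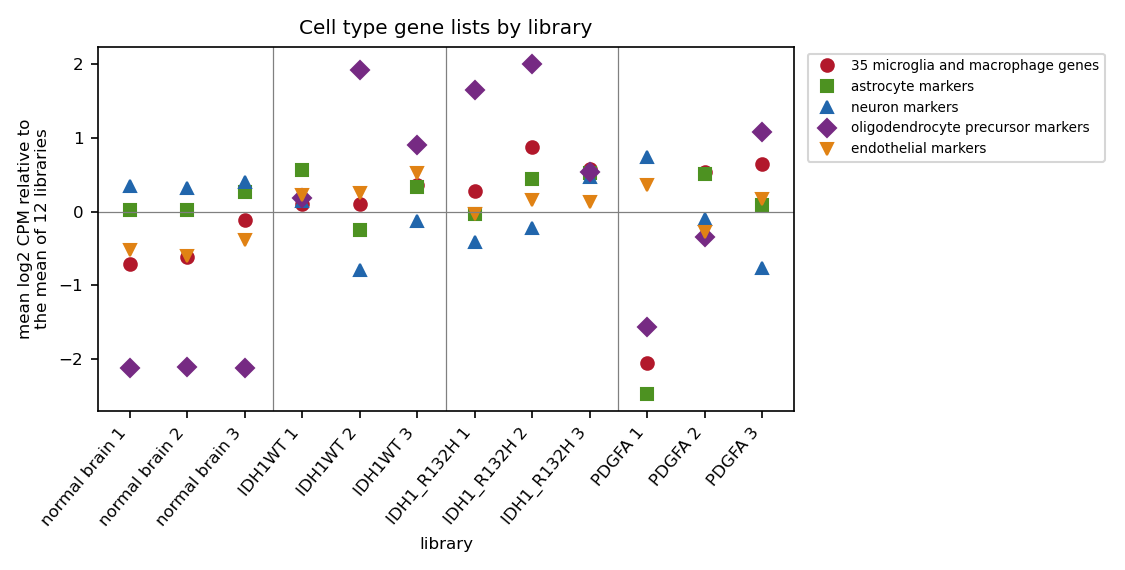
Mean log2 CPM of 5 gene lists in each library, relative to the mean of the 12 libraries. In PDGFA tumour 1 the 35 microglia and macrophage genes stand at -2.05 and the astrocyte markers at -2.47, while the neuron markers stand at 0.73.

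With the 3 tumour groups weighted equally, 1 of the 35 genes, Irf8, was called higher in tumours than in normal brain and 0 were called lower. Of all genes tested, 5.22% were called, 3.71% as higher and 1.5% as lower. The fold change was positive for 31 of the 35 genes, against 48.7% of all genes, with a median log2 fold change of 0.83 against -0.01. In no gene of the 35 were all 9 tumours below all 3 normal brains, against 2.84% of all genes. At an unadjusted p under 0.05 there were 11 of the 35 genes, where 23.6% of all genes were. The shared myeloid genes had the highest group median, 1.21, with 15 of 15 positive. The monocyte and border macrophage genes had a median of 0.57 with 6 of 6 positive, and the homeostatic genes had a median of 0.18 with 9 of 12 positive. In Irf8 alone were all 9 tumours above all 3 normal brains, a separation shown by 4.67% of all genes. For the 8 tumours other than PDGFA 1, 12 of the 35 genes separated in this way, where 10.5% of all genes did. PDGFA 1 was singled out for its low values in these same 35 genes, so leaving it out favours them over other genes.

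Without PDGFA tumour 1, edgeR called 17 of the 35 genes higher in tumours and 0 lower, where 8.6% of 18816 tested genes were called higher. These were Irf8, Spi1, Tyrobp, Trem2, Fcer1g, Fcgr3, Ctss, Ly86, Cybb, Cd68 and Cd14 of the shared genes, Sall1, Fcrls and Hpgds of the homeostatic genes, Lyz2, Csf3r and Gpnmb. The choice of PDGFA 1 came from the values of these same genes. For these calls, and for every value without it below, the share of all genes is therefore not a like comparison. In the other direction, leaving out any 1 of the 3 normal brains left 0 of the 35 genes called, with 0, 1 and 3 genes called of all those tested. On the 12 libraries DESeq2 called 8 of the 35 higher, where it called 8.18% of all genes higher. The 8 were Irf8, Sall1, Fcer1g, Ly86, Cd68, Cd14, Lyz2 and Gpnmb. There limma's voom with sample quality weights called 17 higher, where it called 16.8% of all genes higher. Both methods called 0 of the 35 lower.

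**Figure D3:**
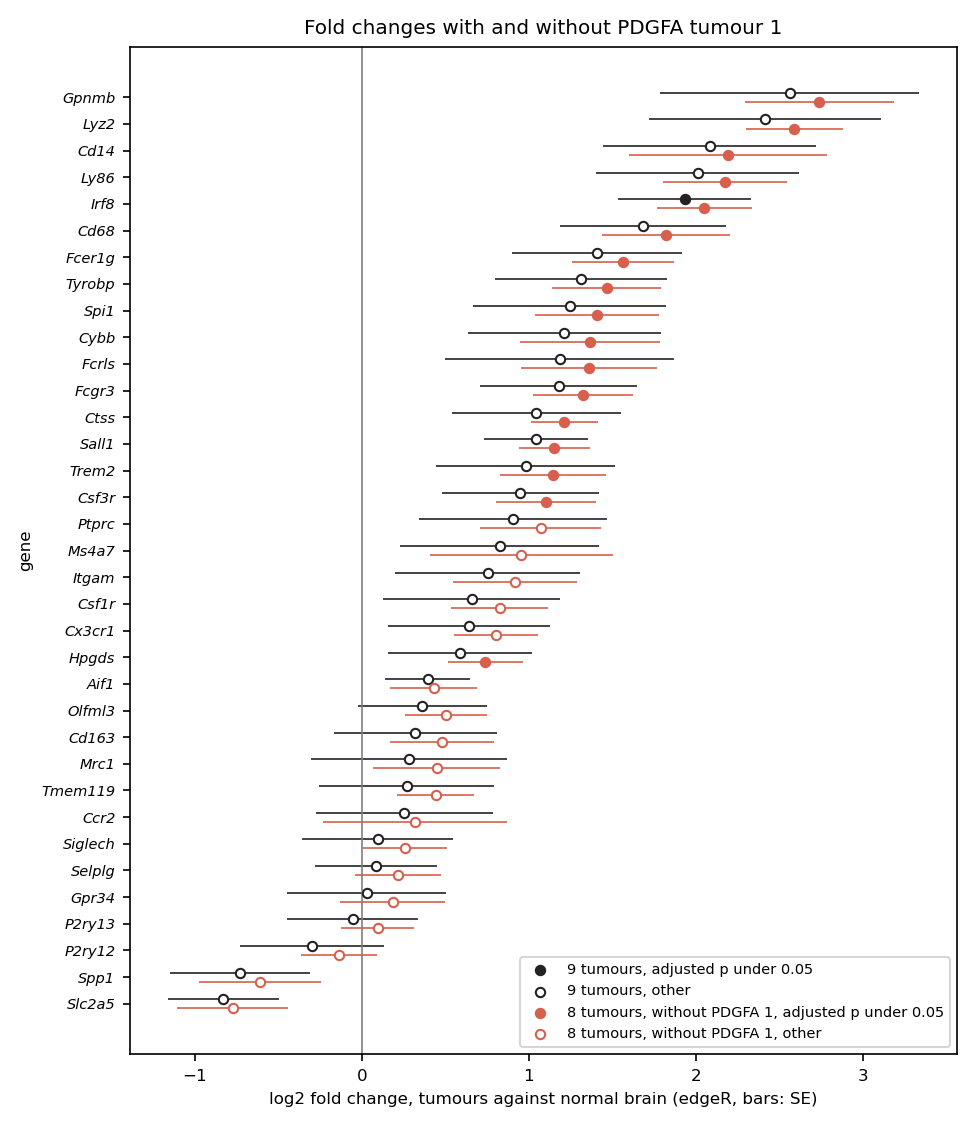
Log2 fold change of each gene, tumours against normal brain, from edgeR with bars of 1 SE. Black marks use 9 tumours and red marks the 8 tumours without PDGFA 1; filled marks have an adjusted p under 0.05. Irf8 is the filled black mark, and 17 red marks are filled.

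The list holds 3 transcription factors. Irf8 encodes a factor that myeloid cells, microglia included, need for their development, and lies at chr8:120736358-120756694 on the plus strand of GRCm38. It stood at 3.0, 3.51 and 4.99 CPM in normal brains 1 to 3. In tumours 1 to 3 of each group it was 14.7, 21.5 and 13.2 CPM for IDH1_R132H, 8.68, 18.4 and 13.1 CPM for IDH1WT, and 5.70, 16.3 and 21.8 CPM for PDGFA. Every tumour was above every normal brain, PDGFA 1 included, although that tumour came closest to them. Irf8 rose by 1.93 on the log2 scale (with an SE of 0.40 and an edgeR adjusted p = 0.0224), or 3.82-fold higher in tumours. Without PDGFA 1 it was 2.05 (adjusted p = 0.00186), and leaving out normal brain 1, 2 or 3 gave an adjusted p of 0.141, 0.138 and 0.0835. Over 20 alternatives of processing or left-out libraries the adjusted p ran from 1.74e-10 to 0.141.

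Spi1 encodes PU.1, the factor that sets the myeloid fate. It was low throughout, at 0.808, 0.878 and 1.40 CPM in normal brains and between 0.224 and 4.17 CPM in tumours, with PDGFA 1 at the bottom on 2 counts. The other 8 tumours were all above the normal brains, and the log2 fold change was 1.25 (SE 0.58, edgeR adjusted p = 0.215), or 1.41 (adjusted p = 0.0262) without PDGFA 1.

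Sall1 encodes a zinc-finger factor that keeps microglia in their resting identity and is also expressed by neural progenitors. It was 17.3, 17.2 and 20.6 CPM in normal brains, and the tumours ran from 13.8 CPM in PDGFA 1 through a median of 44.0 CPM to 54.4 CPM in IDH1_R132H 1. The 8 tumours other than PDGFA 1 were all above the normal brains. On the log2 scale the difference was 1.04 (SE 0.31, edgeR adjusted p = 0.0677), or 1.15 (adjusted p = 0.00504) without PDGFA 1. Among the 12 homeostatic genes Sall1 was the one nearest to a call.

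PU.1 binds a purine-rich site with the core GAGGAA, so the 250 bases before the start of each gene were searched for these letters on both strands in RefSeq promoter sequences of GRCm38.p6. Of the 35 genes 28 matched the promoter table, and Tmem119, Gpr34, Selplg, Spi1, Csf1r, Tyrobp and Cd14 did not. A gene was counted if any of its listed promoters held the letters. The core was found for 13 of the 28 genes, or 46.4%, and for 6986 of 27025 genes in the table, or 25.9%. It was found for 7 of 11 shared myeloid genes and for 3 of 9 homeostatic genes. The longer GAGGAAGT was found for 2 of 28, Hpgds and Spp1, against 2.79% of all genes in the table. A match is a description of the letters and not a binding site. Promoters of 4 shared myeloid genes are shown, read 5′ to 3′ on the gene's strand, with the core or its reverse complement TTCCTC in capitals. Irf8 is shown as the gene that was called, and the others because they hold the core once (Ctss and Trem2) or on both strands (Itgam). They span chr8:120736108-120736357 (Irf8), chr3:95526536-95526785 (Ctss), chr17:48346151-48346400 (Trem2) and chr7:128062390-128062639 (Itgam), all on the plus strand.
Irf8: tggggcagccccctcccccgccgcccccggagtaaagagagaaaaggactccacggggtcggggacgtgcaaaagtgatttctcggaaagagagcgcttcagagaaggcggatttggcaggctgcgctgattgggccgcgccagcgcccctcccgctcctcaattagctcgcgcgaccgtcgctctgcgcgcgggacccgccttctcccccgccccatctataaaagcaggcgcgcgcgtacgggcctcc
Ctss: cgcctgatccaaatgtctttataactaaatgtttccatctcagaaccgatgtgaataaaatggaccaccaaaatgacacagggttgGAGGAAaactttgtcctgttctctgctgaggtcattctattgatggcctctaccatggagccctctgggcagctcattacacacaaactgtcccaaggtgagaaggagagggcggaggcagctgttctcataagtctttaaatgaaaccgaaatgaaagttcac
Trem2: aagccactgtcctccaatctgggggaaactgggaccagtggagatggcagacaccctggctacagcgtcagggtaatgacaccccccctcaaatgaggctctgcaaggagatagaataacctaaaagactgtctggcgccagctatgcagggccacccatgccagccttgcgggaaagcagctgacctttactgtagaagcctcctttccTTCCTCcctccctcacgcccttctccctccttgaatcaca
Itgam: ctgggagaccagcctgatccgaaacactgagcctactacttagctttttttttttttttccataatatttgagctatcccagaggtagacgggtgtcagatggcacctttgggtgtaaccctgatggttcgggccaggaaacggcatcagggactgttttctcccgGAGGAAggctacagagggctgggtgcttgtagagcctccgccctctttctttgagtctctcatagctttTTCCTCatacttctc
In Ctss the core begins 164 bases before the start and in Trem2 40 bases before it. In Itgam it begins 84 and 15 bases before the start, and in Irf8 these letters are not in this window.

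Receptors and their signalling adaptors follow. Csf1r, the receptor for the survival factors CSF1 and IL-34, was 30.6, 31.5 and 49.0 CPM in normal brains. In tumours it was 38.7, 83.3 and 107 CPM for IDH1_R132H, 70.6, 39.3 and 61.9 CPM for IDH1WT, and 5.70, 61.1 and 70.2 CPM for PDGFA. Tumours and normal brains overlapped, with 6 of 9 tumours above all normal brains and PDGFA 1 far below, and the log2 fold change was 0.66 (SE 0.53, edgeR adjusted p = 0.484). An opposite-strand gene, Hmgxb3, covers 15.1% of the exon length of Csf1r, and the strand setting of the counting is not given in the sources used here.

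Tyrobp encodes DAP12, the adaptor through which TREM2 and other myeloid receptors signal by an ITAM. It was 3.0, 3.62 and 8.31 CPM in normal brains and 1.57 CPM in PDGFA 1, with the other 8 tumours between 10.6 and 23.3 CPM, above every normal brain. For Tyrobp the log2 fold change was 1.31 (SE 0.52, edgeR adjusted p = 0.147), or 1.47 (adjusted p = 0.0119) without PDGFA 1. Trem2, a lipid-sensing receptor that pairs with DAP12, was 4.73, 2.85 and 6.21 CPM in normal brains and between 1.45 and 17.3 CPM in tumours. IDH1_R132H 2, PDGFA 3 and PDGFA 2 were the highest for Trem2, and IDH1WT 2 at 4.39 CPM lay among the normal brains. Trem2 had a log2 fold change of 0.98 (with an SE of 0.53 and an edgeR adjusted p = 0.289), or 1.15 (adjusted p = 0.0328) without PDGFA 1.

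Fcer1g, the common gamma chain that carries an ITAM for Fc receptors, was 1.73, 1.87 and 3.41 CPM in normal brains. Its tumours ran from 0.894 CPM in PDGFA 1 to 13.4 CPM in IDH1_R132H 3, with the 8 other tumours all above the normal brains. For Fcer1g the log2 fold change was 1.41 (SE 0.51, edgeR adjusted p = 0.118), or 1.56 (adjusted p = 0.00629) without PDGFA 1. Fcgr3, a low-affinity receptor for IgG that uses this chain, had a log2 fold change of 1.18 (SE 0.47, adjusted p = 0.151), with 7 of 9 tumours above all normal brains. The genes that act downstream of these adaptors were read from a list of 14, all of which were tested. None of the 14 was called, where 5.22% of all genes tested were, so the absence of calls in a list this short says little. Of the fold changes 13 of 14 were positive, against 48.7% of all genes, and the median was 0.94 against -0.01. The smallest edgeR adjusted p were those of the phosphatase Ptpn6 (log2 fold change 1.24, adjusted p = 0.0751), the kinases Btk (1.69, adjusted p = 0.0821) and Lyn (1.0, adjusted p = 0.0888), and the lipid phosphatase Inpp5d (0.94, adjusted p = 0.134). At an unadjusted p under 0.05 there were 8 of 14, beside 23.6% of all genes tested.

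Itgam, Ptprc and Aif1 are the usual tissue stains for macrophages and leukocytes. Itgam, the CD11b integrin chain, was 2.31, 2.09 and 2.98 CPM in normal brains and between 0.671 and 8.43 CPM in tumours, which overlapped them. Its log2 fold change was 0.76 (SE 0.55, edgeR adjusted p = 0.439), and 68.7% of its exon length is also annotated to Gm49368 on the same strand. Ptprc, which encodes CD45 of all leukocytes, had a log2 fold change of 0.91 (SE 0.56, adjusted p = 0.354), and IDH1_R132H 3 at 6.71 CPM and PDGFA 1 at 1.68 CPM lay below all normal brains. Aif1, which encodes the stain IBA1, had a log2 fold change of 0.39 (SE 0.25, adjusted p = 0.374). In PDGFA 1 Aif1 was at 4.14 CPM on 37 counts, within the normal range of 3.23 to 4.55 CPM.

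A further 5 shared genes serve the lysosome, the oxidative burst and endotoxin sensing. Ctss encodes cathepsin S, the lysosomal protease that trims the invariant chain for antigen presentation. It was 15.8, 19.0 and 28.7 CPM in normal brains. In tumours it was 46.2, 67.0 and 57.6 CPM for IDH1_R132H, 36.4, 43.7 and 51.8 CPM for IDH1WT, and 3.91, 45.9 and 50.8 CPM for PDGFA. The 8 tumours other than PDGFA 1 were all above the normal brains, while PDGFA 1 was below all of them. For Ctss the log2 fold change was 1.05 (SE 0.51, edgeR adjusted p = 0.236) with that tumour and 1.21 (adjusted p = 0.00340) without it.

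Ly86 encodes MD-1, which partners the toll-like receptor homologue RP105. It was 2.66, 1.98 and 4.20 CPM in normal brains and 1.12 CPM in PDGFA 1, and ran from 8.05 to 19.6 CPM in the other 8 tumours. Ly86 had a log2 fold change of 2.01 (with an SE of 0.61 and an edgeR adjusted p = 0.0703), or 2.18 (adjusted p = 0.00369) without PDGFA 1. Cd68, a glycoprotein of the phagocyte lysosome, was 1.62, 2.63 and 2.19 CPM in normal brains and between 4.15 and 11.8 CPM in the 8 tumours other than PDGFA 1, which had 2.12 CPM. Its log2 fold change was 1.68 (SE 0.50, adjusted p = 0.0649), or 1.82 (adjusted p = 0.00950) without PDGFA 1.

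Cd14, the endotoxin co-receptor, rested on few reads, with 0, 3 and 9 counts in normal brains and 5 to 23 counts in tumours. Its log2 fold change was 2.08 (with an SE of 0.64 and an edgeR adjusted p = 0.0736). Over 20 alternatives of processing or left-out libraries it ran from 0.46 to 3.35. Cybb, the catalytic subunit of the phagocyte NADPH oxidase, was 1.15, 1.76 and 1.66 CPM in normal brains and reached 9.88 CPM in IDH1WT 2, above the other tumours at 0.224 to 4.63 CPM. Cybb had a log2 fold change of 1.21 (SE 0.58, adjusted p = 0.227), or 1.37 (adjusted p = 0.0486) without PDGFA 1.

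**Figure D4:**
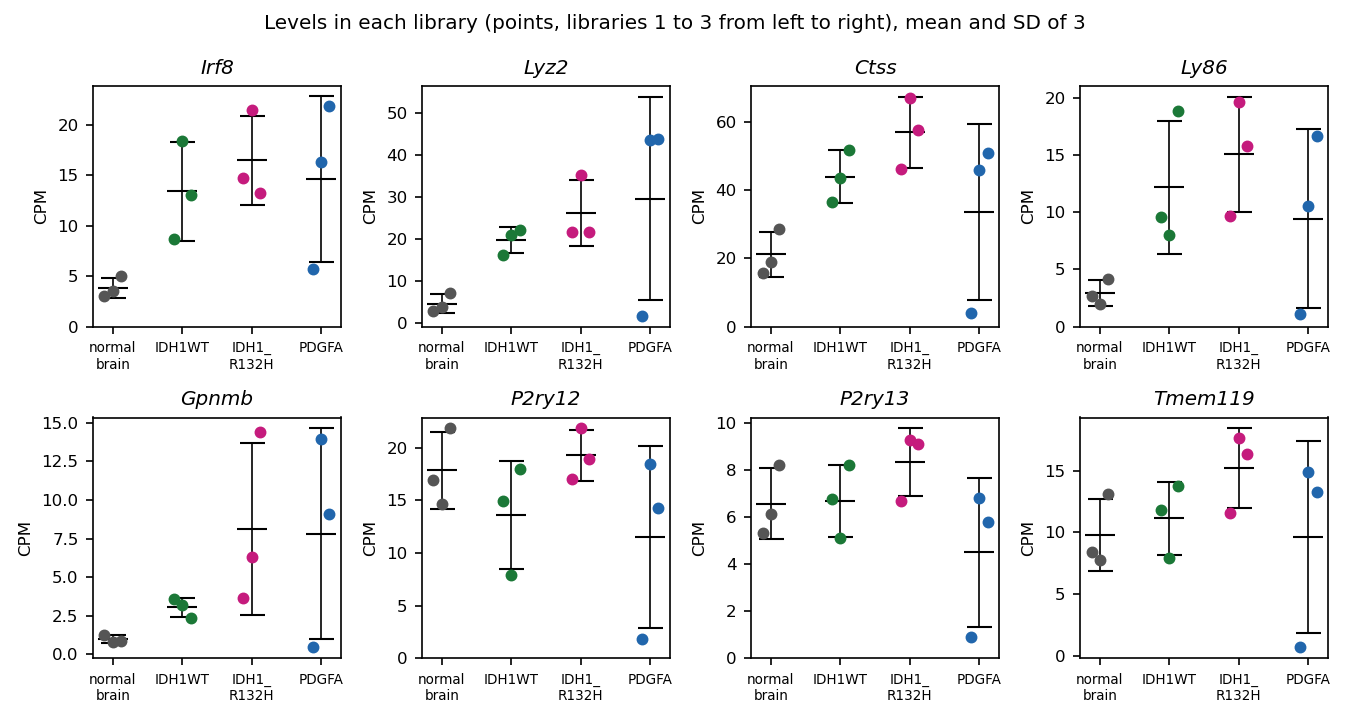
CPM of 8 genes in each library (points), with the mean and SD of the 3 libraries of a group. Irf8, Lyz2, Ctss, Ly86 and Gpnmb lie higher in most tumours than in normal brain, whereas P2ry12, P2ry13 and Tmem119 overlap it; PDGFA 1 is the lowest PDGFA point in all 8 panels.

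Among the monocyte and border macrophage genes, Lyz2 had the largest fold change. It encodes lysozyme M, a granule enzyme of monocytes, macrophages and neutrophils. Lyz2 was 2.77, 3.84 and 7.18 CPM in normal brains. In tumours it was 21.7, 35.2 and 21.7 CPM for IDH1_R132H, 16.2, 21 and 22.1 CPM for IDH1WT, and 1.68, 43.5 and 43.8 CPM for PDGFA. PDGFA tumours thus held both the lowest value and the 2 highest values of the 12 libraries. The log2 fold change was 2.42 (SE 0.69, edgeR adjusted p = 0.0608), or 2.59 (adjusted p = 0.00155) without PDGFA 1.

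The other 5 genes of this group had smaller values. Ccr2, the chemokine receptor by which monocytes leave the marrow, had at most 18 counts in any library and a log2 fold change of 0.26 (with an SE of 0.53 and an edgeR adjusted p = 0.809). Cd163, the haemoglobin scavenger receptor of border macrophages, had 0.32 (SE 0.49, adjusted p = 0.734). Mrc1, the mannose receptor CD206 of the same cells, had 0.28 (SE 0.59, adjusted p = 0.811), with 5 tumours above and 4 below all 3 normal brains. Ms4a7, a tetraspan protein of macrophages that is low in microglia, had 0.83 (SE 0.59, adjusted p = 0.428) on at most 22 counts. Csf3r, the receptor for the granulocyte growth factor, had 0.95 (SE 0.47, adjusted p = 0.246), or 1.10 (adjusted p = 0.0302) without PDGFA 1. Levels of Ccr2 and Ms4a7 were thus near the limit of what these libraries resolve, where 3 counts correspond to 0.199 to 0.592 CPM.

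Other markers of these cells were read from lists of their own. Of 9 further markers of border macrophages 6 were tested and 0 called, where 5.22% of all genes tested were called, which says little for so few genes. Their median log2 fold change was 0.15. The largest was 1.16 (edgeR adjusted p = 0.0660) for Stab1, a scavenger receptor also found on endothelium. Of 10 further monocyte markers 5 were tested and 2 called higher, Fn1 (1.60, adjusted p = 0.0181) and Vcan (2.71, adjusted p = 0.0263), beside 3.71% of all genes tested. Both encode matrix proteins that other cells make too, and Vcan is also on the list of precursor markers used here. Ly6c2 and Plac8, which define inflammatory monocytes, were at or below 0.976 CPM in every library and did not pass the filter.

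The 2 genes of lipid handling and phagocytosis had fold changes of opposite sign. Over all tumours the edgeR fit called neither, whereas DESeq2 called Gpnmb higher (adjusted p = 0.00250). Gpnmb encodes a transmembrane glycoprotein of lipid-laden macrophages. It was 1.27, 0.768 and 0.875 CPM in normal brains. In tumours it was 3.68, 6.31 and 14.4 CPM for IDH1_R132H, 3.58, 3.17 and 2.35 CPM for IDH1WT, and 0.447, 13.9 and 9.06 CPM for PDGFA. The 8 tumours other than PDGFA 1 were all above the normal brains, over a wide range. The log2 fold change was 2.56 (SE 0.78, edgeR adjusted p = 0.0712), or 2.74 (adjusted p = 0.00318) without PDGFA 1. Spp1, which encodes the secreted protein osteopontin and is also expressed by some neurons, was 13.5, 28.6 and 59.0 CPM in normal brains and 9.06 to 35.2 CPM in tumours. Normal brain 3 was the highest library for Spp1, and the log2 fold change was -0.73 (SE 0.42, adjusted p = 0.316).

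From a further list of 17 genes that microglia raise in disease, 3 were called higher in tumours and 0 lower, beside 3.71% of all genes tested called higher and 1.5% lower. These were Lgals3bp (log2 fold change 1.38, edgeR adjusted p = 0.0239), Cd9 (1.88, adjusted p = 0.0257) and the beta-glucan receptor Clec7a (2.18, adjusted p = 0.0468). The integrin chain Itgax, which marks dendritic cells and activated microglia, had 2.79 (SE 0.78, adjusted p = 0.0559). Clec7a and Itgax rested on few reads, at 0.350 to 0.577 CPM and 0.175 to 0.462 CPM in normal brains. Which cells of the whole tissue carried these RNAs, Cd9 included, was not tested. The median of the 17 was 0.54.

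None of the 12 homeostatic microglia genes was called by edgeR over all tumours, where 5.22% of all genes tested were. For 11 of the 12, all but Sall1, tumours other than PDGFA 1 overlapped the normal brains. P2ry12, the ADP receptor that steers microglial processes, was 17, 14.7 and 21.9 CPM in normal brains. In tumours it was 17, 21.9 and 18.9 CPM for IDH1_R132H, 14.9, 7.93 and 18 CPM for IDH1WT, and 1.79, 18.5 and 14.3 CPM for PDGFA. Tumours and normal brains overlapped, with no tumour above all normal brains and IDH1WT 2, PDGFA 3 and PDGFA 1 below them. The log2 fold change was -0.30 (SE 0.43, edgeR adjusted p = 0.720). P2ry13, a second nucleotide receptor that is its neighbour on chr3 of GRCm38 (P2ry13 at chr3:59207892-59210882, P2ry12 at chr3:59216272-59262871, both on the minus strand), had -0.05 (SE 0.39, adjusted p = 0.953). Without PDGFA 1 the sign for P2ry13 changed, to 0.10 (adjusted p = 0.818).

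Tmem119, a membrane protein used to tell microglia from other macrophages, was 8.43, 7.79 and 13.1 CPM in normal brains and between 0.671 and 17.7 CPM in tumours, with a log2 fold change of 0.27 (with an SE of 0.52 and an edgeR adjusted p = 0.796). PDGFA 1 held 6 counts of it, and the other 8 tumours ran from 7.93 CPM upwards. Cx3cr1, the receptor for the neuronal chemokine fractalkine, was 18.1, 20.3 and 33.2 CPM in normal brains, 4.47 CPM in PDGFA 1 and 25.9 to 57.6 CPM in the other tumours. Its log2 fold change was 0.64 (SE 0.49, adjusted p = 0.454), and 6 of 9 tumours were above all normal brains.

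Siglech, a sialic-acid-binding lectin, had a log2 fold change of 0.10 (SE 0.45), Gpr34, a lysophosphatidylserine receptor, had 0.03 (SE 0.48), and Selplg, the selectin ligand PSGL-1, had 0.09 (SE 0.37). Olfml3, a secreted olfactomedin-like protein, had 0.36 (SE 0.39), and Hpgds, the haematopoietic prostaglandin D synthase, had 0.59 (SE 0.43). The smallest edgeR adjusted p of these 5 was 0.437, for Hpgds, which was 0.0467 without PDGFA 1 (log2 fold change 0.74). Fcrls, an Fc receptor-like scavenger receptor, was 2.31, 2.52 and 4.55 CPM in normal brains, 17.9 CPM in IDH1_R132H 2 and 11.8 and 17.3 CPM in PDGFA 2 and 3, but 3.58 to 4.15 CPM in the IDH1WT tumours. Fcrls had a log2 fold change of 1.19 (SE 0.69, adjusted p = 0.318), or 1.36 (adjusted p = 0.0451) without PDGFA 1. Slc2a5, the fructose transporter GLUT5, was 2.19, 1.21 and 3.50 CPM in normal brains and 0.559 to 2.59 CPM in tumours, the most negative value of the 35 at -0.83 (SE 0.33, adjusted p = 0.154).

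A further 18 microglia genes had a median log2 fold change of 0.57, with 14 of 18 positive. Of the 18, 1 was called higher and 0 lower, beside 3.71% of all genes tested called higher and 1.5% lower. It was Entpd1 (1.05, edgeR adjusted p = 0.0250), which encodes the ATP-degrading ectoenzyme CD39 and is also expressed by endothelium. A further 22 shared myeloid genes had a median of 1.05, with 19 of 22 positive. Of these 22, 1 was likewise called higher and 0 lower. At an unadjusted p under 0.05 there were 4 of 18 and 12 of 22, beside 23.6% of all genes tested, so that the share among the 18 was near that of all genes.

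To set the homeostatic genes against the amount of myeloid RNA, the mean log2 CPM of the 15 shared myeloid genes was subtracted from each gene within each library. This difference carries no test. The shared genes were higher in tumours, by a median of 1.21, so in tumours other than PDGFA 1 a gene that kept its level becomes lower on this scale. In PDGFA 1 their mean relative to the 12 libraries was -1.92, against -1.10 to -0.38 in normal brains. There such a gene becomes higher. Being lower in all 9 tumours thus required a level in PDGFA 1 below all normal brains, which limits the share of all genes that can meet it. P2ry12 was 2.28 ± 0.22 (SD, n = 3) above the shared genes in normal brains and 0.73 ± 0.38 (SD, n = 9) above them in tumours. P2ry13 went from 0.86 ± 0.06 to -0.37 ± 0.27, and Tmem119 from 1.40 ± 0.16 to 0.36 ± 0.52. On this scale 8 of the 12 homeostatic genes, and Mrc1, were lower in all 9 tumours than in all 3 normal brains, as were 1.34% of 17797 genes. The 8 were Cx3cr1, P2ry12, P2ry13, Tmem119, Siglech, Gpr34, Olfml3 and Selplg. Lyz2 went the other way, from 0.28 ± 0.30 to 1.37 ± 0.59, with 8 of 9 tumours above all normal brains.

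This depended on the reference. With the 22 further shared myeloid genes as reference, chosen after seeing the data, P2ry12, P2ry13 and Tmem119 were lower in all 9 tumours, as were 1.38% of 17790 genes. The other 5 overlapped with the normal brains. This reference was also lower in PDGFA 1, at -1.66 relative to the 12 libraries, against -0.82 to -0.43 in normal brains. With that reference Irf8 was higher in all 9 tumours, as were 1.12% of genes.

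**Figure D5:**
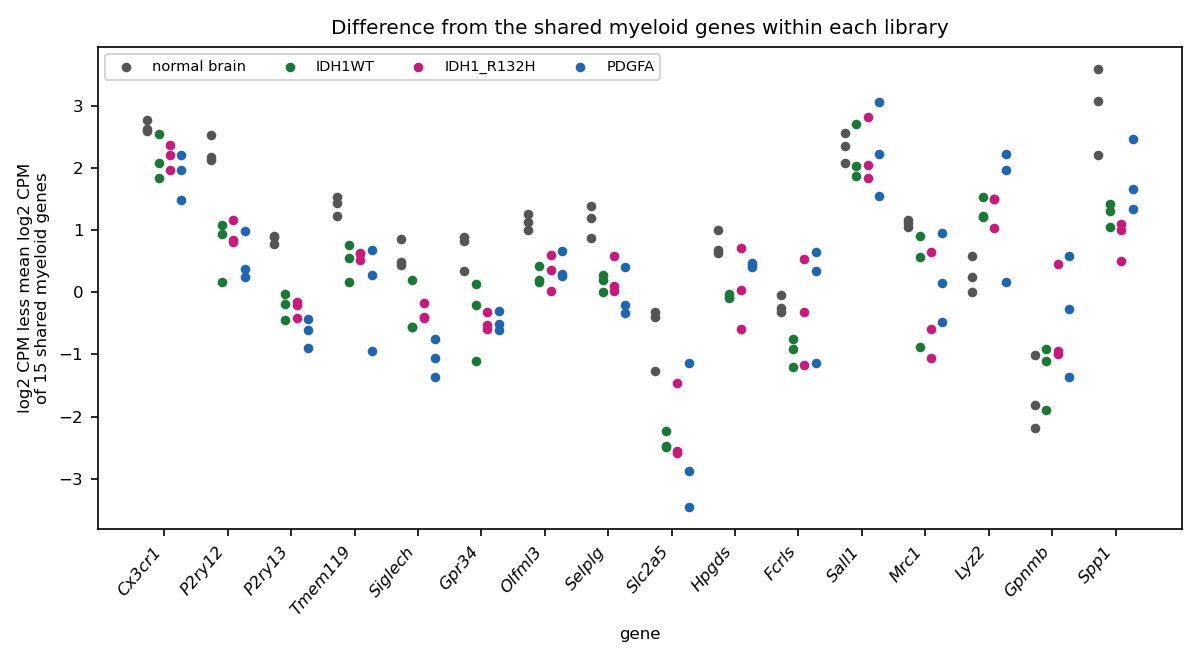
Log2 CPM of 16 genes less the mean log2 CPM of the 15 shared myeloid genes in the same library, by group (colours). The grey points of the 3 normal brains lie above all 9 tumours for Cx3cr1, P2ry12, P2ry13, Tmem119, Siglech, Gpr34, Olfml3, Selplg and Mrc1; for Lyz2 they lie below 8 of 9 tumours.

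To set levels of different genes side by side, CPM was divided by exon length, as CPM per kilobase. The length merges all annotated exons of a gene. Which of them were expressed was not tested, so the order is approximate. In normal brain the order began with Spp1 at 20.5 ± 14.1, Ctss at 15.6 ± 4.94, Tyrobp at 7.47 ± 4.35, P2ry12 at 7.01 ± 1.44 and Csf1r at 6.41 ± 1.80 CPM per kilobase (SD, n = 3). In tumours it began with Ctss at 33.0 ± 13, Tyrobp at 19.3 ± 8.62, Lyz2 at 19.2 ± 10.3, Spp1 at 12.4 ± 5.06 and Csf1r at 10.4 ± 5.06 (SD, n = 9). Among these 5, neighbours in the order lay within the larger of their SDs of each other, except Ctss and Tyrobp in both tissues. Lyz2 moved from rank 8 to rank 3 of the 35, and P2ry12 from rank 4 to rank 9. Ccr2 was the lowest in both tissues.

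Each tumour group was also set against the same 3 normal brains, so these comparisons share their controls. In IDH1_R132H tumours Irf8 and Sall1 were called higher and 0 genes lower of the 35, where 7.17% of all genes were called and 4.83% as higher. Irf8 rose by 2.10 on the log2 scale (with an SE of 0.45 and an edgeR adjusted p = 0.0220) and Sall1 by 1.37 (SE 0.36, adjusted p = 0.0415). Over 20 alternatives the adjusted p ran from 3.71e-09 to 0.103 for Irf8 and from 1.02e-05 to 0.150 for Sall1. Without IDH1_R132H 2 or any 1 normal brain, 0 of the 35 were called. The median of the 35 was 1.04, with 33 positive, and 14 of the 35 had an unadjusted p under 0.05, where 25.7% of all genes did.

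In IDH1WT tumours 0 of the 35 were called with edgeR, where 1.72% of all genes were. The median was 0.53 with 32 positive, and 7 of the 35 were at an unadjusted p under 0.05, where 18.9% of all genes were. Irf8 was nearest, at 1.78 (SE 0.45, adjusted p = 0.0629). In PDGFA tumours 0 of the 35 were called, where 0.303% of all genes were, with a median of 0.66, 25 positive and 7 at an unadjusted p under 0.05, where 10.6% of all genes were. Again Irf8 was nearest, at 1.92 (SE 0.45, adjusted p = 0.0961). Without PDGFA 1 the counts called higher were 16 for IDH1_R132H, 5 for IDH1WT and 13 for PDGFA, where 7.93%, 4.88% and 3.59% of all genes were called higher. DESeq2 on all 12 libraries called 10, 3 and 2 higher, where 8.86%, 5.61% and 2.37% of all genes were. A count that differs between tumour groups is not a test of the difference between them.

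Compared directly, IDH1_R132H and IDH1WT tumours gave 0 calls with edgeR among the 35 and 0% among all genes. Among the 35, 0 genes had an unadjusted p under 0.05, where 475 of 17812 genes, or 2.67%, did, and DESeq2 called 0 of the 35. Fold changes were positive, that is higher in IDH1_R132H, for 30 of 35 genes, with a median of 0.41 against -0.00383 for all genes. The 3 largest were Gpnmb at 1.39 (SE 0.77), Fcrls at 1.32 (SE 0.78) and Csf3r at 1.06 (SE 0.54), each with an adjusted p of 1.0. The median standard error over all genes was 0.29. By role, 12 of 12 homeostatic, 13 of 15 shared myeloid and 3 of 6 monocyte and border macrophage genes were positive. The genes were read in the same 3 libraries per group, so these counts are not counts of replicates. The 35 genes summed to 401, 628 and 563 CPM in IDH1_R132H tumours 1 to 3. In IDH1WT tumours 1 to 3 they summed to 387, 368 and 453 CPM, so IDH1_R132H 1 lay within the IDH1WT range. Without PDGFA 1, which enters this comparison through the shared estimate of spread, 5 of the 35 had an unadjusted p under 0.05 and 0 were called.

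IDH1_R132H and PDGFA tumours likewise gave 0 calls with edgeR among the 35 and 0% among all genes. The median was 0.54 with 30 of 35 positive, and Slc2a5 (1.29, SE 0.45, adjusted p = 0.374) and Ccr2 (1.58, SE 0.64, adjusted p = 0.418) had an unadjusted p under 0.05, as did 1940 of all genes, or 10.9%. IDH1WT and PDGFA tumours gave 0 calls with edgeR among the 35 and 0% among all genes, with a median of 0.20, 21 of 35 positive and 0 of the 35 at an unadjusted p under 0.05, where 1038 of all genes, or 5.83%, were. DESeq2 called 0 of the 35 in both comparisons. Both medians moved without PDGFA 1, to 0.09 for IDH1_R132H against PDGFA and to -0.28 for IDH1WT against PDGFA, again with 0 of the 35 called. Within the PDGFA group the 35 genes summed to 75.8 CPM in tumour 1 and to 497 and 565 CPM in tumours 2 and 3.

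Ligands for the myeloid receptors were read from a list of 16, of which 9 were tested. Of these, 2 were called higher and 1 lower, beside 3.71% of all genes tested called higher and 1.5% lower. Tgfb1, the factor that keeps microglia in their resting identity, rose by 1.75 (SE 0.34, edgeR adjusted p = 0.0194), from 2.41 to 3.50 CPM in normal brains to 3.24 to 17.8 CPM in tumours, where PDGFA 1 was the lowest. The chemokine Ccl3 was called higher (edgeR adjusted p = 0.0424) on at most 0.115 CPM in normal brains and 0.265 to 1.45 CPM in tumours. Its fitted fold change thus rests on very few reads. Cxcl12, a chemokine made by vessels and neurons, fell by 1.16 on the log2 scale (SE 0.28, adjusted p = 0.0371). The ligands of CSF1R and CX3CR1 were picked out after their values were seen. Csf1 had 0.48 (SE 0.17, adjusted p = 0.118) and Il34, the other CSF1R ligand, which neurons make, had -0.69 (SE 0.20, adjusted p = 0.0645). Cx3cl1, which encodes fractalkine, had -0.52 (SE 0.26, adjusted p = 0.250). Ccl2, the ligand of CCR2, had 2.35 (SE 0.68, adjusted p = 0.0622).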

How the data were processed

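RNA sequencing counts of 12 libraries, 3 per group, were used. The authors deposited raw read counts per Ensembl gene and a table of rlog values, which are on a log2 scale. The submitters' processing notes name GRCm38, DESeq2 1.16.1, featureCounts 1.5.1 of the Subread package and STAR 2.5.2b. For annotation, strand setting and multi-mapping reads the choice is not given in the sources used here. GENCODE M21 names 49412 of the 49671 genes.

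Counts were fitted with edgeR 4.0.16 in R 4.3.3 (TMM scaling, filterByExpr with a minimum count of 10 and a minimum total of 15, robust quasi-likelihood fit, 1 coefficient per group, 8 residual degrees of freedom). P-values were adjusted over the 17812 genes tested. For tumours against normal brain the 3 tumour groups were weighted equally. The within-library differences used log2 CPM with a prior count of 2. DESeq2 1.42.0 and limma 3.58.1 (voom, and the deposited rlog values) were alternatives, as were other scaling, no filter and each library left out. The fitting scripts were tested on simulated data. The floor of 3 counts covers counting error only, whereas the SEs of the fits and the SDs include the spread between libraries. Replicate numbers follow the order of deposition and pair nothing.

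All 35 genes are named. Of other lists the text names up to 4 tested genes with the smallest p and genes of lists of 10 or fewer, with exceptions stated. Some items are not reported here. The members and lists were chosen with earlier results of these data known. Promoter sequences are from RefSeq, GRCm38.p6, and matched by symbol.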

Additional observations from a re-analysis of the deposited data

Results flagged for a closer look

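The groups of the study hold 3 libraries each, too few to test for a library that stands apart, so the 9 tumours were pooled for this check over 40 quantities. By chance about 1 in 20 such checks picks out a library. PDGFA 1 stood far below the other tumours for P2ry13, at 0.894 CPM, and for Ctss, at 3.91 CPM. It did so as well for the mean log2 CPM of all 35 genes relative to the 12 libraries, at -2.05, of the homeostatic genes, at -2.27, of the shared myeloid genes, at -1.92, and of the monocyte and border macrophage genes, at -1.99. IDH1WT 2 stood far above the other tumours for Cybb, the oxidase subunit, at 9.88 CPM.

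For 2 genes the 3 IDH1_R132H tumours and the 3 PDGFA tumours lay on opposite sides of the normal brain mean. Siglech was above the normal mean of 5.41 CPM in each IDH1_R132H tumour and below it in each PDGFA tumour. Ccr2 was likewise above and below its normal mean of 0.814 CPM. Lying on opposite sides is not a test, and the difference of these effects was not tested in that way. The direct comparison of the groups by edgeR gave adjusted p = 0.492 for Siglech and adjusted p = 0.418 for Ccr2.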

How the results depend on the processing

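No paired analysis was possible because the labels give no replicate numbers shared between groups. DESeq2 with PDGFA 1 left out, and the second reference list, were chosen after seeing the data. Of the 35 genes, 30 kept the direction of tumours against normal brain in all 20 alternatives, and the median of the 35 ran from 0.34 to 1.11. The cause of each change was not tested. With few reads, Cd14, Ccr2 and Ms4a7 are limited by depth.

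In the order tumours, IDH1_R132H, IDH1WT and PDGFA, each against normal brain, the counts of the 35 genes called were 17, 20, 11 and 8 without the filter on low counts, 8, 10, 3 and 2 with DESeq2, and 17, 25, 8 and 2 with voom. Of the first 17, 16 were higher, and Spp1 was lower (-0.76). They were 18, 15, 8 and 13 without IDH1_R132H 3 and PDGFA 1 together, and 20, 20, 11 and 17 with DESeq2 and PDGFA 1 left out. With limma on the rlog values they were 2, 3, 0 and 0. Leaving out 1 library gave 0 to 17, 0 to 16, 0 to 5 and 0 to 13.

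Among all genes, in the same order, 2204, 2468, 1555 and 958 were called without the filter, 2084, 2438, 1272 and 484 with DESeq2, and 6005, 7320, 3008 and 436 with voom. There were 2928, 2167, 1300 and 970 without both libraries, and 3388, 3139, 1919 and 1485 with DESeq2 and PDGFA 1 left out. With limma on the rlog values there were 715, 1021, 83 and 0. Leaving out 1 library gave 0 to 2536, 0 to 2303, 0 to 1090 and 0 to 828, the highest each without PDGFA 1.

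Between tumour groups, all genes called for IDH1_R132H against IDH1WT were 79 without the filter and 5 with DESeq2 and PDGFA 1 left out. For IDH1_R132H against PDGFA they were 627 without the filter, 146 with DESeq2, 396 with voom, 1 with rlog values, 1 without both libraries, 76 with DESeq2 and PDGFA 1 left out, and 0 to 43 with 1 library left out. For IDH1WT against PDGFA they were 261 without the filter, 12 with DESeq2, 3 without both libraries, 16 with DESeq2 and PDGFA 1 left out, and 0 to 1 with 1 library left out.

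The direction of tumours against normal brain reversed for 5 genes, none of them called. With 1 library left out, P2ry13 ran from -0.20 to 0.14, Siglech from -0.040 to 0.27, Gpr34 from -0.24 to 0.41, Selplg from -0.099 to 0.36 and Ccr2 from -0.038 to 0.46. P2ry13 was also 0.17 with voom, 0.087 without both libraries and 0.10 with DESeq2 and PDGFA 1 left out, and Ccr2 was -0.0044 with voom.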

Other observations

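Endothelial markers were higher in tumours for 5 of 10 genes by edgeR and lower for 0, where 3.71% of all genes were called higher, with a median log2 fold change of 0.84. The blood-clotting factor Vwf (1.62, SE 0.24, adjusted p = 0.0121) and the growth factor receptor Kdr (1.22, SE 0.20, adjusted p = 0.0151) led them. Unlike the microglia genes, these markers were not low in PDGFA 1, where they summed to 339 CPM against 182 to 203 CPM in normal brains.

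Cd4, which encodes the T helper cell co-receptor and is also carried by some macrophages, was at 21.1 CPM in PDGFA 1 and at 1.23 to 6.12 CPM in the other 11 libraries.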
